A study of Rattus norvegicus with 12 samples.

Results

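Transcripts of 9 amino acid catabolism enzymes were followed through the livers of rats fed a normal or a high fat diet, with or without S-allylmercaptocysteine (SAMC), a water-soluble organosulfur compound of aged garlic. The enzymes were chosen by gene symbol, as Tat, Hpd, Hgd, Fah, Tdo2, Hal, Sds, Got1 and Gpt, and each matched 1 of the 40154 rows of the deposited gene table. All 9 are protein-coding genes. The table places Tat on chromosome 19, Hpd and Sds on 12, Hgd on 11, Fah and Got1 on 1, Tdo2 on 2 and Hal and Gpt on 7. Liver RNA of Sprague Dawley rats had been sequenced in 12 libraries, 3 per group: rats on a high fat diet given SAMC (HFD+SAMC), on that diet alone (HFD), on a normal diet given SAMC (Control+SAMC) and on the normal diet alone (Control). HFD replicates carry the numbers 2 to 4, those of the other groups 1 to 3. Neither the amount and duration of SAMC nor the sex and age of the rats is given in the labels. They also do not say whether the samples came from separate animals, so a p-value here measures how far these samples spread, which may be technical.

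The liver is the main site at which most amino acids are broken down, and what remains of their carbon enters gluconeogenesis, ketone body formation or the citric acid cycle. Tyrosine is degraded in a chain that starts with Tat, passes through Hpd and Hgd and ends with Fah, which releases fumarate and acetoacetate. Tdo2 opens the indole ring of tryptophan, Hal removes ammonia from histidine, and Sds converts serine to pyruvate. Got1 and Gpt are cytosolic aminotransferases that exchange amino groups between glutamate and aspartate or alanine, and both enzymes are measured in blood as signs of liver injury. Several of these genes, among them Tat, Tdo2 and Sds, are long known in rat liver to respond to glucocorticoids, glucagon and feeding.

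Total counts ranged from 45680738 in Control+SAMC replicate 1 to 61937544 in HFD+SAMC replicate 3, and the 9 transcripts together took 0.422% to 0.599% of the counts of a library. All 10 hepatocyte markers examined, such as albumin, were present, with sums of 146200 to 296300 CPM (counts scaled to a library of 1000000 counts). Sums of markers use the total counts of a library, while CPM of single genes are also scaled by TMM (trimmed mean of M-values). Transcripts of Fga, a fibrinogen chain made by hepatocytes, were at 3378 to 3822 CPM in HFD replicates 2 and 3, Control+SAMC replicate 1 and Control replicate 2, while the other 8 libraries had 8221 to 18520 CPM. Skeletal muscle markers summed to 1071 CPM in HFD+SAMC replicate 3, against at most 1.68 in the other 11 libraries. For 1 of the 40154 genes, RGD1562465, the deposited values implied a length of 4432 bp in the HFD and Control+SAMC libraries and of 3377 bp in the HFD+SAMC and Control libraries. By this single gene the libraries fall into 2 sets, and every comparison of 2 groups that differ only in diet or only in SAMC also crosses the sets, so that set and group cannot be told apart there. Effects averaged over the other factor are balanced over the sets, while the interaction of diet and SAMC equals the difference between them. In bulk tissue, fewer cells of a type and less RNA per cell cannot be told apart.

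On a scale per length (RPKM), Hpd was the most abundant of the 9 transcripts, with a mean of 1765 RPKM over the 12 libraries, and Sds the least abundant, with 17.9 RPKM. Between them lay Tdo2 at 417.5, Tat at 284, Hal at 221, Fah at 178, Hgd at 154, Got1 at 101 and Gpt at 48.1 RPKM. The range of Hpd over libraries did not overlap that of Tdo2, and each other pair of neighbours in this order had overlapping ranges. Gpt was nevertheless above Sds in 12 of 12 libraries, and Hgd above Got1 in 11 of 12, whereas Tat exceeded Hal in 8 of 12 and Fah exceeded Hgd in 8 of 12.

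None of the 9 transcripts passed an adjusted p of 0.05 in any of 7 contrasts (quasi-likelihood test of edgeR, Benjamini-Hochberg adjustment over 15916 genes), and DESeq2 called none either. At an unadjusted p under 0.05, Hgd passed in the averaged diet effect and no member passed in the other 6 contrasts. The spread between libraries of the same group was wide for most of the 9. The within-group SD of log2 CPM was 1.67 for Sds, 1.11 for Got1, 0.76 for Tat and 0.75 for Gpt, against a median of 0.21 over the 8008 genes whose mean log2 CPM was at least 3. Of those genes, 99.8% had a smaller spread than Sds, 99.2% a smaller spread than Got1 and 97.7% a smaller spread than Tat. Fah lay nearest to the usual gene, with an SD of 0.24 and a smaller spread in 63.7% of genes.

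**Figure D1:**
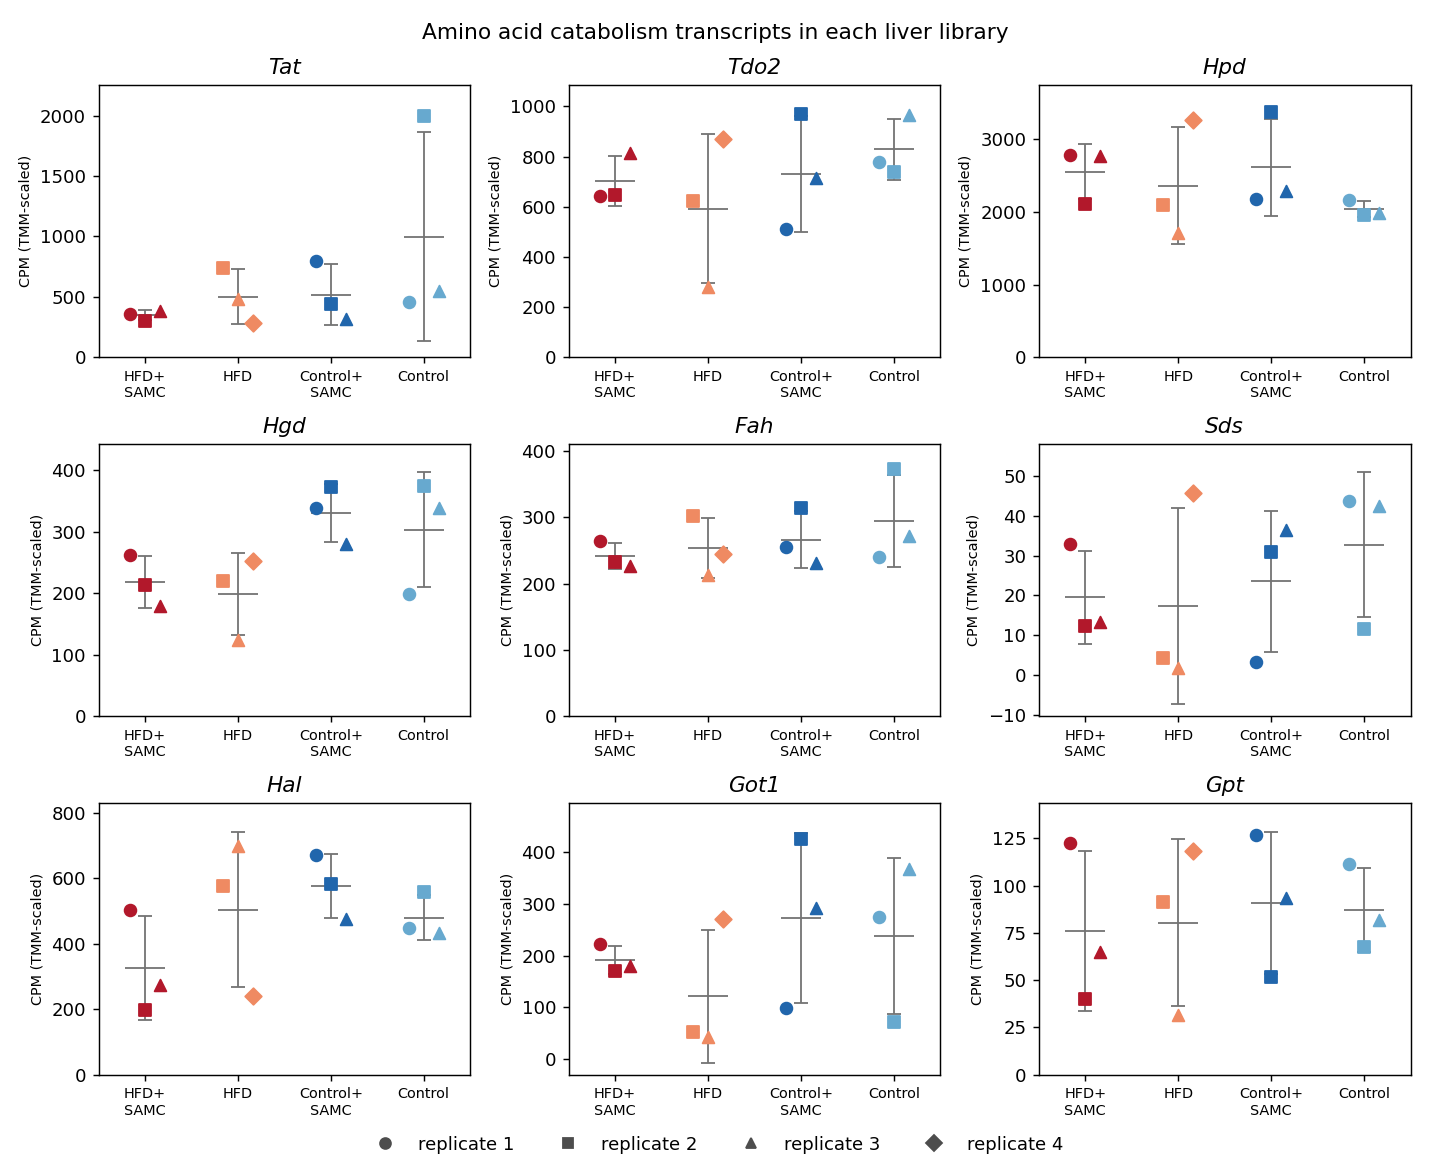
TMM-scaled CPM (trimmed mean of M-values) of the 9 transcripts in each of 12 libraries, by group; the marker shape gives the replicate number, the long bar the group mean and the whiskers 1 SD (n = 3). Got1 and Sds split within the HFD, Control+SAMC and Control groups, and Tat has its highest value, 1994 CPM, in Control replicate 2.

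Tat transcripts, which encode the first and usually rate-limiting enzyme of tyrosine breakdown, were at 358, 301 and 386 CPM in HFD+SAMC livers, at 735, 484 and 282 CPM in HFD livers, at 796, 441 and 317 CPM in Control+SAMC livers and at 456, 1994 and 544 CPM in Control livers. Control replicate 2 stood above every other library, at 3.99 times the mean of the other 2 Control libraries. All HFD+SAMC libraries lay below all Control libraries, which differ in both diet and SAMC, and the other pairs of groups overlapped. How many of all genes separate HFD+SAMC from Control was not counted. Between groups that differ only in diet or only in SAMC, 13.5% to 18.8% of all genes lay without overlap, in either direction. The 3 HFD+SAMC libraries were close to each other, and the highest library of the 12 exceeded the lowest by 7.06 times. Group means were 348 ± 43.0 CPM in HFD+SAMC, 500.4 ± 227 CPM in HFD, 518 ± 249 CPM in Control+SAMC and 998 ± 864 CPM in Control livers (SD, n = 3 each).

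The next enzymes of the tyrosine chain varied less. Hpd, which forms homogentisate, was at 2783, 2116 and 2771 CPM in HFD+SAMC livers, at 2101, 1716 and 3265 CPM in HFD livers, at 2180, 3383 and 2287 CPM in Control+SAMC livers and at 2168, 1961 and 1986 CPM in Control livers. The 3 Control libraries lay close together, and HFD replicate 4 and Control+SAMC replicate 2 were the highest. Every Control+SAMC library exceeded every Control library, and the other pairs of groups that differ in 1 factor overlapped. Hpd overlaps a long noncoding RNA, LOC102547495, on the other strand. That RNA had 1174 counts over the 12 libraries, against 1548362 for Hpd, and whether reads of the overlap were told apart by strand is not given in the sources used here.

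Hgd, the dioxygenase that opens the ring of homogentisate and is lost in human alkaptonuria, was at 263, 213 and 179 CPM in HFD+SAMC livers, at 220, 124 and 253 CPM in HFD livers, at 338, 374 and 281 CPM in Control+SAMC livers and at 198, 375 and 338 CPM in Control livers. All 3 HFD+SAMC and all 3 HFD libraries lay below all 3 Control+SAMC libraries, while Control replicate 1 lay among the libraries of the high fat diet groups. By RPKM, without the TMM factors, HFD+SAMC and Control+SAMC overlapped. The share of all genes that separate HFD from Control+SAMC was not counted. Differences between the 4 groups made up 48.04% of the variation of Hgd log2 CPM, the largest share among the 9 transcripts, against a median of 34.0% over genes. Fah, which carries out the last step and is lost in human hereditary tyrosinaemia, was at 264, 233 and 227 CPM in HFD+SAMC livers, at 302, 213 and 245 CPM in HFD livers, at 255, 314 and 231 CPM in Control+SAMC livers and at 240.5, 373 and 271 CPM in Control livers. Its highest library exceeded its lowest by 1.75 times, the narrowest range of the 9, and all groups overlapped.

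Tdo2, the first and rate-limiting enzyme of the kynurenine pathway of tryptophan, was at 642, 647 and 816 CPM in HFD+SAMC livers, at 624, 279 and 870.4 CPM in HFD livers, at 509, 971 and 713 CPM in Control+SAMC livers and at 780.02, 739 and 966 CPM in Control livers. HFD replicate 3 was the lowest library, at 0.374 times the mean of the other 2 HFD libraries, and the groups overlapped. Hal, the histidine ammonia lyase that forms urocanate, was at 503, 198 and 273 CPM in HFD+SAMC livers, at 575, 697 and 240 CPM in HFD livers, at 671, 582 and 477 CPM in Control+SAMC livers and at 447, 560 and 432 CPM in Control livers. HFD replicate 3, the lowest library for 7 of the 9 transcripts, was the highest for Hal. HFD+SAMC replicates 2 and 3 and HFD replicate 4 were the 3 low libraries of Hal, and HFD+SAMC replicate 1 overlapped the Control+SAMC values.

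Sds, the serine dehydratase of gluconeogenic liver, had the widest range, 24.1 times between its highest and lowest library. It was at 32.9, 12.3 and 13.4 CPM in HFD+SAMC livers, at 4.30, 1.89 and 45.6 CPM in HFD livers, at 3.25, 31.0 and 36.4 CPM in Control+SAMC livers and at 43.8, 11.7 and 42.6 CPM in Control livers. Each group except HFD+SAMC held at least 1 library far below the rest. HFD replicate 3 was at 0.0757 times the mean of its other 2 group members, and Control+SAMC replicate 1 at 0.0965 times.

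Got1, the cytosolic aspartate aminotransferase that also serves the malate-aspartate shuttle, split in a like way. Its level was 222, 171 and 180 CPM in HFD+SAMC livers, 51.8, 42.02 and 270 CPM in HFD livers, 99.2, 426 and 293 CPM in Control+SAMC livers and 275, 72.1 and 368 CPM in Control livers. HFD replicate 4 was at 5.76 times the mean of the other 2 HFD libraries, while Control+SAMC replicate 1 was at 0.276 times and Control replicate 2 at 0.224 times the mean of their group partners. The Got1 value of the library with muscle transcripts, HFD+SAMC replicate 3, lay between those of the other 2 HFD+SAMC libraries. Gpt, the cytosolic alanine aminotransferase, was at 123, 40.0 and 64.9 CPM in HFD+SAMC livers, at 91.3, 31.7 and 118 CPM in HFD livers, at 127, 51.8 and 93.7 CPM in Control+SAMC livers and at 111, 67.8 and 81.9 CPM in Control livers. Its 3 lowest libraries were HFD replicate 3, HFD+SAMC replicate 2 and Control+SAMC replicate 2, of which HFD replicate 3 was among the 4 lowest of Got1 too, and all groups overlapped.

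The 4 lowest libraries of Got1, at 42.02 to 99.2 CPM against 171 to 426 CPM in the other 8, were the 4 with low fibrinogen transcripts. The same 4 libraries held the 4 lowest values of Sds, although the highest of these, 11.7 CPM in Control replicate 2, lay close to 12.3 CPM in HFD+SAMC replicate 2. Of these, HFD replicate 2, Control+SAMC replicate 1 and Control replicate 2, also held the 3 highest values of Tat. The 4 libraries are 2 of the 3 HFD, 1 of the 3 Control+SAMC and 1 of the 3 Control libraries, with none of HFD+SAMC, so the split runs within 3 groups and is also unequal between groups. It is given as a description of these libraries, and its source was not tested.

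**Figure D2:**
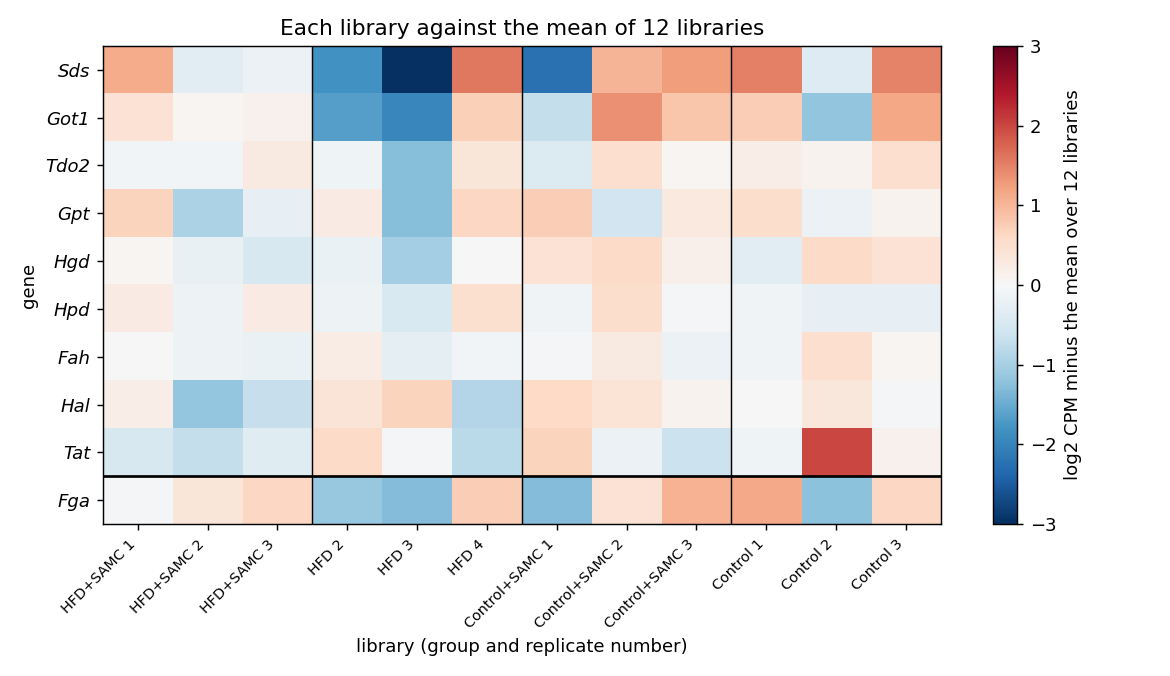
Log2 CPM of each transcript minus its mean over the 12 libraries, with genes in rows, libraries in columns and Fga as the lowest row; vertical lines part the 4 groups. Sds and Got1 are low, in blue, in the same 4 columns as Fga, and Tat is highest in one of them, Control replicate 2.

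**Figure D3:**
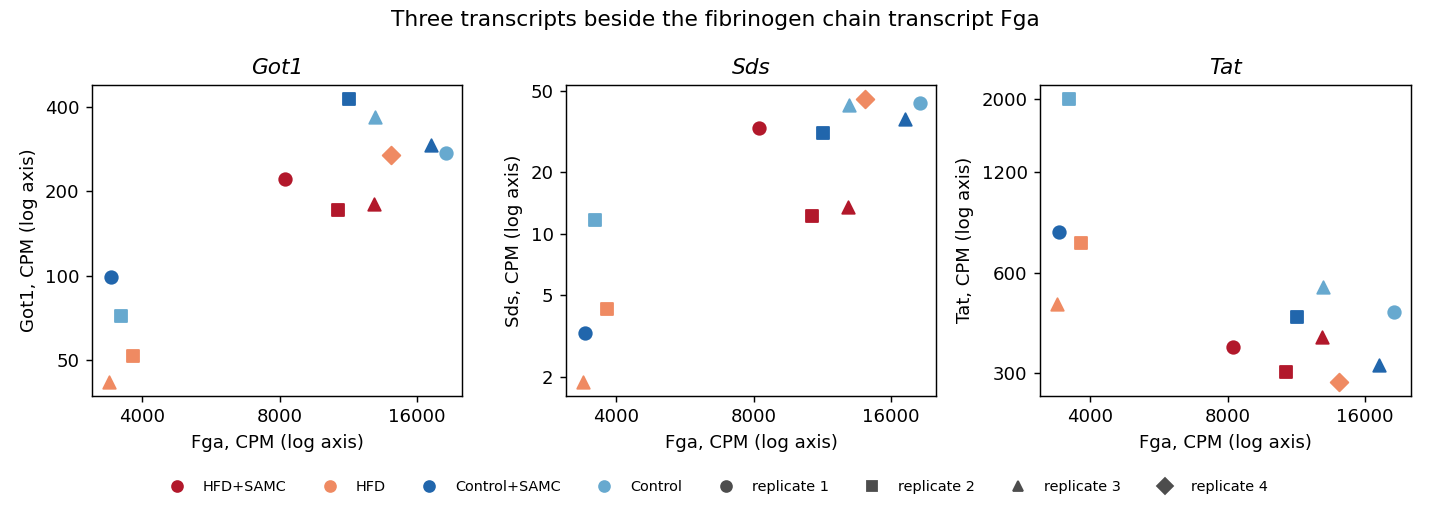
Got1, Sds and Tat CPM in each library against Fga CPM, with log axes; colour gives the group and marker shape the replicate number. The 4 libraries at 3378 to 3822 CPM of Fga hold the 4 lowest values of Got1 and of Sds.

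Promoter windows from 250 bases before to 50 bases after the start were in the RefSeq table (build GRCr8) for 6 of the 9 genes, namely Tat, Hpd, Hgd, Fah, Tdo2 and Got1. Those of Tat and Got1 are shown because their transcripts went opposite ways in most of the 4 libraries with low Fga. Both are written 5′ to 3′ along the gene, with CCAAT, or its reverse ATTGG, in capitals; Tat lies at chr19:54856354-54856653 on the plus strand and Got1 at chr1:252329822-252330121 on the minus strand.
Tat: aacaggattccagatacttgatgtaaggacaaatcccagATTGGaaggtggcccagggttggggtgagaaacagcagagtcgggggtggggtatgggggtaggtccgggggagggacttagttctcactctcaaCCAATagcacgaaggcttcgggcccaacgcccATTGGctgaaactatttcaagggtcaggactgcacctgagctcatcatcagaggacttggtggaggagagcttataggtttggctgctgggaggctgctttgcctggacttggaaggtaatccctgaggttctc
Got1: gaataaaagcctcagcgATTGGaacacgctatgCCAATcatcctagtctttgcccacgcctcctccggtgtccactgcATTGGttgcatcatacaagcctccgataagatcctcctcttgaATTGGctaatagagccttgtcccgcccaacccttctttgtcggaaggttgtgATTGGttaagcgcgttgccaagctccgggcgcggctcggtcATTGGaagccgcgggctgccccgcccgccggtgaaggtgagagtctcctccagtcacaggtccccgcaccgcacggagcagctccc
CCAAT was found on either strand 3 times in the window of Tat and 6 times in that of Got1. Of 33469 rat promoter windows of the same length, 37.5% held at least 1 such match, 3.02% at least 3 and 0.0418% at least 6. Tdo2 and Hgd had 1 match each, and Hpd and Fah had none. Tdo2 was the only one of the 6 with TATAAA on either strand, which 14.2% of all windows held. None of the 6 windows held CACGTG on either strand, against 6.42% of all windows. None held AGAACA either, against 20.7% of all windows. Nor did any hold TGACG, against 21.2%. A match describes the letters of the window and is no evidence of a bound factor.

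The first question of the design is what a high fat diet did without SAMC. In HFD against Control, 2 of the 9 transcripts were higher and 7 lower after TMM scaling. The TMM factors were 1.038 to 1.177 in the high fat diet libraries and 0.7949 to 1.037 in the normal diet libraries. By mean RPKM, without these factors, Fah (186 against 175) and Gpt (49.0 against 45.1) were higher in HFD, besides Hpd and Hal, and the rest were lower. None of the 9 was called by edgeR, which called 0.145% of all genes tested, or by DESeq2, which called 2.07%. No member had an unadjusted p under 0.05, against 10.7% of all genes. No member separated the groups without overlap, which 14.7% of all genes did. The 3 with the smallest p were Hgd, with a log2 fold change of -0.61 ± 0.28 (SE; adjusted p = 0.475, edgeR), Tat with -0.996 ± 0.57 (adjusted p = 0.571) and Tdo2 with -0.49 ± 0.35 (adjusted p = 0.657). Without Control replicate 2 the value of Tat was -0.00063. Without the 4 libraries low in Fga, which leaves 1 HFD library, that of Hgd was -0.088 and that of Tdo2 -0.0077. With SAMC in both groups, HFD+SAMC against Control+SAMC, all 9 were lower after TMM scaling. By mean RPKM, Tdo2 (444 against 416), Hpd (2010 against 1853) and Fah (175.5 against 175.2) were higher in HFD+SAMC, and the rest were lower. None of the 9 was called by edgeR (0.0628% of all genes) or DESeq2 (1.71%). None had an unadjusted p under 0.05, against 10.9% of all genes. By TMM-scaled CPM, Hgd was the 1 member without overlap between these groups, against 17.8% of all genes. It had a log2 fold change of -0.60 ± 0.28 (adjusted p = 0.479, edgeR). The RPKM of Hgd overlapped, at 112 to 170 in HFD+SAMC and 163 to 210 in Control+SAMC. Hal was at -0.83 ± 0.39 (adjusted p = 0.479, edgeR) in that contrast.

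Averaged over SAMC and after TMM scaling, the high fat diet libraries had lower values than the normal diet libraries for 8 of the 9 transcripts. The TMM factors, which differ between the diets as given above, bear on this count. None of the 9 was called by edgeR (0.421% of all genes) or DESeq2 (3.39%). At an unadjusted p under 0.05 there was 1 member, Hgd, against 13.6% of all genes. Hgd differed by a log2 fold change of -0.60 ± 0.20, or 0.658-fold (95% interval 0.477 to 0.906), with an adjusted p of 0.217 by edgeR and 0.0755 by DESeq2. Tat was at 0.580-fold (interval 0.306 to 1.10; adjusted p = 0.429, edgeR) and Got1 at 0.597-fold (interval 0.240 to 1.48; adjusted p = 0.618, edgeR). The log2 fold change of Tat, -0.79, was -0.29 without Control replicate 2. That of Hgd was -0.33 without the 4 libraries low in Fga, which leaves 1 HFD library. The intervals differ in what they leave possible. That of Fah ran from 0.709 to 1.10-fold and that of Hpd from 0.801 to 1.41-fold, whereas that of Sds ran from 0.178 to 2.46-fold, so a change of several fold in Sds was not detectable with these libraries.

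The second question is what SAMC did on each diet. In HFD+SAMC against HFD, 5 transcripts were higher and 4 lower, and none was called by edgeR (0.0503% of all genes) or DESeq2 (1.60%). None had an unadjusted p under 0.05, against 10.6% of all genes. No member separated these groups without overlap, against 18.8% of all genes. The 3 smallest p belonged to Hal, at a log2 fold change of -0.63 ± 0.39 (adjusted p = 0.5998, edgeR), Tat at -0.52 ± 0.56 (adjusted p = 0.786) and Got1 at 0.66 ± 0.80 (adjusted p = 0.817). Without the 4 libraries low in Fga, which leaves 1 HFD library, the values of these 3 had the opposite sign. They were 0.44 for Hal, 0.31 for Tat and -0.49 for Got1. In Control+SAMC against Control, 5 were higher and 4 lower, and none was called by edgeR (0.119% of all genes) or DESeq2 (1.38%). The share of all genes with an unadjusted p under 0.05 was 9.78%, and no member was among them. Hpd was the 1 member without overlap, against 13.5% of all genes, at a log2 fold change of 0.36 ± 0.25 (adjusted p = 0.692, edgeR). Tat was at -0.95 ± 0.57 (adjusted p = 0.634, edgeR), and at 0.051 without Control replicate 2.

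Averaged over diet, 4 of the 9 transcripts were higher and 5 lower with SAMC, and none was called by edgeR (0.220% of all genes) or DESeq2 (2.75%). None had an unadjusted p under 0.05, against 12.4% of all genes. Tat came nearest, at 0.601-fold (interval 0.317 to 1.14; adjusted p = 0.491, edgeR), a log2 fold change of -0.735. It was -0.24 without Control replicate 2 and -0.049 without the 4 libraries low in Fga, which leaves 1 HFD library. The 95% interval was 0.746 to 1.15-fold for Fah, 0.794 to 1.504-fold for Hgd, 0.888 to 1.57-fold for Hpd and 0.693 to 1.51-fold for Tdo2. It was 0.569 to 1.36-fold for Hal and 0.549 to 1.79-fold for Gpt. The test of whether SAMC acted differently on the 2 diets, the interaction, called none of the 9 by edgeR (0.145% of all genes) or DESeq2 (0.807%), and none had an unadjusted p under 0.05, against 7.41% of all genes. Hal had its smallest p, at a log2 difference of -0.90 ± 0.55 (adjusted p = 0.770, edgeR). The libraries of each group enter more than 1 of these contrasts, so their results are not independent of each other.

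**Figure D4:**
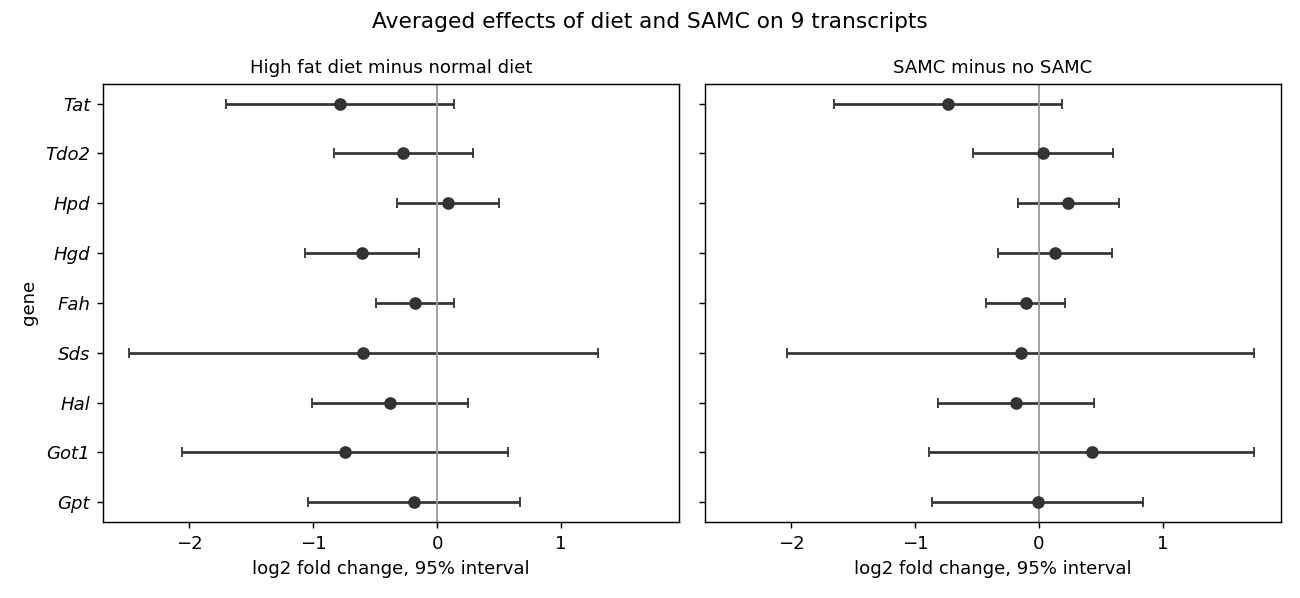
Log2 fold changes of the 9 transcripts with 95% intervals for the high fat diet averaged over SAMC (left) and for SAMC averaged over diet (right), from 1 fit of 12 libraries; the vertical line marks no difference. Hgd in the left panel is the 1 transcript whose interval, before adjustment over genes, leaves out 0, and Sds has the widest intervals.

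The genes whose pattern over the 12 libraries was most like that of each member were ranked by the root mean square difference of centred log2 CPM, among 7687 genes. Sds lay nearest to Agxt (0.555), the peroxisomal enzyme that detoxifies glyoxylate, then to Got1 (0.73) and the adenylate cyclase gene Adcy1 (0.75), and it deviated from its own mean by 1.53 on this scale. Got1 lay nearest to Etnk1 (0.39), an ethanolamine kinase, Aass (0.40), the first enzyme of lysine breakdown, and Nnmt (0.41), which methylates nicotinamide, with an own deviation of 1.07. Tat lay nearest to the growth hormone receptor gene Ghr (0.30), with an own deviation of 0.755. No member of the tyrosine chain was among the 3 nearest genes of another.

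Of 66 further genes of amino acid breakdown in 6 lists, 64 could be tested, and none was called by edgeR in any contrast. At an unadjusted p under 0.05 there were 7 in the averaged diet effect, against 13.6% of all genes. There were 14 in the averaged SAMC effect, against 12.4%, and 4 to 9 in the other 5 contrasts, against 7.41% to 10.9%. DESeq2 called 2 and 1 in the averaged effects, against 3.39% and 2.75% of all genes. It called 1 in HFD against Control, against 2.07%, and 0 in the other 4 contrasts. In the averaged diet effect 28 were higher and 36 lower, with a median log2 fold change of -0.02, and in the averaged SAMC effect 39 were higher and 25 lower, with a median of 0.09, against medians of 0.00 over all genes in both. By list, the averaged diet effect was lower for 4 of 4 genes beside tyrosine and phenylalanine, 9 of 14 of tryptophan and lysine, 1 of 3 of histidine, 5 of 14 of serine, glycine and threonine, 6 of 10 of the alanine, aspartate, glutamate, proline and ornithine list and 11 of 19 of the branched chain list.

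Bckdk, the kinase that restrains branched chain ketoacid breakdown, came nearest to the threshold in the averaged diet effect. It was at 26.6, 28.8 and 27.0 CPM in HFD+SAMC livers, at 24.0, 18.0 and 21.8 CPM in HFD livers, at 39.4, 31.6 and 31.6 CPM in Control+SAMC livers and at 32.7, 77.5 and 41.0 CPM in Control livers. Every library of the high fat diet lay below every library of the normal diet. The gene was picked for its small p, and the share of all genes that separate the diets in this way was not counted. Bckdk had a log2 fold change of -0.78 ± 0.18 (adjusted p = 0.0973 by edgeR and 0.00485 by DESeq2). It passed in edgeR without Control replicate 1 or without Control replicate 2, at adjusted p-values of 0.0242 and 0.0449. Without Control replicate 2 its log2 fold change was smaller, at -0.56. It did not pass in the other edgeR alternatives, among them the replicate number as a block (adjusted p = 0.145, edgeR). Qprt, which turns quinolinate from tryptophan into a precursor of NAD, came nearest in the averaged SAMC effect. It was at 91.9, 75.4 and 75.9 CPM in HFD+SAMC livers, at 129, 136 and 92.0 CPM in HFD livers, at 67.4, 55.1 and 60.6 CPM in Control+SAMC livers and at 85.3, 97.2 and 75.9 CPM in Control livers. Within each diet the SAMC libraries lay lower, without overlap. On the high fat diet the nearest values were almost equal, 91.88 CPM in HFD+SAMC replicate 1 and 92.0 CPM in HFD replicate 4. Qprt was picked for its small p, and the share of all genes that separate alike on both diets was not counted. Of all genes, 18.8% lay without overlap, in either direction, between HFD+SAMC and HFD, and 13.5% between Control+SAMC and Control. The averaged SAMC effect of Qprt was a log2 fold change of -0.53 ± 0.12 (adjusted p = 0.0888 by edgeR and 0.00622 by DESeq2). Its averaged diet effect was a log2 fold change of 0.44 ± 0.12 (adjusted p = 0.132 by edgeR and 0.0402 by DESeq2). Amdhd1, an enzyme of histidine breakdown, had a log2 fold change of 0.61 ± 0.23 in the averaged diet effect (adjusted p = 0.277, edgeR). It was called with the replicate number as a block, at 0.83 (adjusted p = 0.0253, edgeR). That block gives HFD replicate 4, the only library with its number, a term of its own. The direction of Amdhd1 was opposite to that of Hal, at -0.38 ± 0.27 (adjusted p = 0.589, edgeR).

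Among 19 regulators of these pathways, none was called in an averaged effect. At an unadjusted p under 0.05 there were 6 in the diet effect and 2 in the SAMC effect, and DESeq2 called 2 and 1. Of all genes, 13.6% and 12.4% had such a p in these 2 effects, and DESeq2 called 3.39% and 2.75%. In the diet effect, Foxa3, a liver forkhead factor, had a log2 fold change of -0.99 ± 0.20 (adjusted p = 0.0683, edgeR). Hnf4a, a nuclear receptor of hepatocytes, was at -0.54 ± 0.12 (adjusted p = 0.0792, edgeR). Its levels were 499.6, 649 and 530 CPM in HFD+SAMC livers and 961, 918 and 874 CPM in HFD livers. Control+SAMC livers had 922.5, 1236 and 893 CPM and Control livers 1047, 1029 and 1133 CPM. All HFD+SAMC libraries lay below every library of the other groups, and HFD+SAMC enters both averaged effects. HFD libraries lay below the Control libraries and overlapped the Control+SAMC libraries. The averaged SAMC effect of Hnf4a was -0.39 ± 0.12 (adjusted p = 0.205 by edgeR and 0.0281 by DESeq2). Foxa3 passed without Control+SAMC replicate 2 or 3, at adjusted p-values of 0.0475 and 0.0175 by edgeR. Of 15 tested glucocorticoid and glucagon responsive genes, 12 were lower with SAMC, with a median log2 fold change of -0.47 and none called by edgeR. At an unadjusted p under 0.05 there were 5, and DESeq2 called 3. By diet, 12 were lower in HFD+SAMC against HFD, with a median of -0.71, and 9 in Control+SAMC against Control, with a median of -0.04; edgeR called none in either. There 5 and 3 had an unadjusted p under 0.05, against 10.6% and 9.78% of all genes. DESeq2 called 3 and 1, against 1.60% and 1.38%. Dusp1, a phosphatase induced by glucocorticoids, had a log2 fold change of -1.46 ± 0.28 (adjusted p = 0.0739, edgeR) and Pck1, the entry enzyme of gluconeogenesis, at -0.83 ± 0.19 (adjusted p = 0.106). Dusp1 passed without Control replicate 1 or 2, at adjusted p-values of 0.0268 and 0.0123, and Pck1 without Control replicate 3, at 0.0475, by edgeR. Of 10 amino acid transporters, 9 were lower in the diet effect, with 5 at an unadjusted p under 0.05, none called by edgeR and 2 by DESeq2. The arginine transporter gene Slc7a2 was at 136, 132 and 109 CPM in HFD+SAMC livers and at 258, 187 and 260.5 CPM in HFD livers. Control+SAMC livers had 211, 351 and 288 CPM and Control livers 257, 339 and 275 CPM. For Slc7a2 too, all HFD+SAMC libraries lay below every library of the other groups. HFD libraries overlapped those of each normal diet group. The averaged SAMC effect of Slc7a2 was -0.47 ± 0.14 (adjusted p = 0.217 by edgeR and 0.0694 by DESeq2). In the diet effect Slc7a2 came nearest of the 10, at a log2 fold change of -0.74 ± 0.14 (adjusted p = 0.0511, edgeR). It passed the threshold by DESeq2 (adjusted p = 0.000281), and in edgeR with no filter on low counts, without robust dispersion, with the replicate number as a block, or without Control+SAMC replicate 1 or Control replicate 1, at adjusted p-values of 0.0272 to 0.0495.

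Sds and Hal are known as periportal genes, expressed by hepatocytes around the portal vein, so markers of both ends of the lobule were examined. None of 14 periportal markers, Sds and Hal among them, was called in an averaged effect by edgeR. At an unadjusted p under 0.05 there were 1 in the diet and 2 in the SAMC effect, and DESeq2 called 0 and 2. Of all genes, 13.6% and 12.4% had such a p in these 2 effects, and DESeq2 called 3.39% and 2.75%. Of the 14, 10 were lower in the averaged diet effect, with a median log2 fold change of -0.29. In HFD+SAMC against Control+SAMC, all 9 enzymes were lower after TMM scaling, though not all by mean RPKM. All 14 periportal markers were lower there after TMM scaling, with a median of -0.36. None was called there by edgeR or DESeq2, and 3 had an unadjusted p under 0.05, against 10.9% of all genes. Of 11 pericentral markers, 6 were higher and 5 lower in the averaged diet effect. EdgeR called 1, DESeq2 called 2, and 2 had an unadjusted p under 0.05. Axin2 was lower with the diet, at a log2 fold change of -0.43 ± 0.08 (adjusted p = 0.05015 by edgeR and 0.000439 by DESeq2). It passed in edgeR with DESeq2 size factors, without robust dispersion or without Control+SAMC replicate 3, at adjusted p-values of 0.0433 to 0.0486. The gene called by edgeR was Rhbg, an ammonium transporter of the hepatocytes around the central vein. Rhbg was at 6.02, 9.50 and 6.995 CPM in HFD+SAMC livers, at 9.51, 6.02 and 5.89 CPM in HFD livers, at 4.81, 3.11 and 1.53 CPM in Control+SAMC livers and at 2.00, 1.81 and 1.82 CPM in Control livers. All 6 libraries of the high fat diet exceeded all 6 of the normal diet. The gene is named for its call, and the share of all genes that separate the diets in this way was not counted. Rhbg rose 3.01-fold with the diet averaged over SAMC, a log2 fold change of 1.59 ± 0.25 (adjusted p = 0.0187, edgeR). The call was lost without HFD+SAMC replicate 2, HFD replicate 2, Control+SAMC replicate 2 or Control replicate 3, at adjusted p-values of 0.0522 to 0.0656. The markers of some cell types lay on one side in the diet effect. All 12 Kupffer cell and macrophage markers were higher, with a median log2 fold change of 0.38, and all 10 hepatocyte markers were lower, with a median of -0.37. No gene of either list was called by edgeR. In the 2 lists 7 and 5 had an unadjusted p under 0.05, against 13.6% of all genes, and DESeq2 called 3 and 2, against 3.39%. All 5 tested erythroid markers were lower, with a median of -1.11, 4 at an unadjusted p under 0.05, 0 called by edgeR and 1 by DESeq2. The 3 fibrinogen chains and 2 tested neutrophil markers were lower, and the 4 tested skeletal muscle markers higher. The remaining cell type lists had genes on both sides. The Kupffer cell and macrophage markers summed to 850 to 1015 CPM in HFD+SAMC, 972 to 1279 CPM in HFD, 716 to 817 CPM in Control+SAMC and 558 to 735 CPM in Control libraries, and the hepatocyte markers to 150300 to 169700 CPM in HFD+SAMC, 153700 to 179700 CPM in HFD, 159800 to 207400 CPM in Control+SAMC and 146200 to 296300 CPM in Control libraries. Both sums are scaled to library totals without the TMM factors, which ran from 0.795 in Control replicate 2 to 1.18 in HFD replicate 3. The order of groups by these sums can therefore differ from their order by TMM-scaled CPM. The part of these markers in the values of the 9 enzymes was not tested.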

How the data were processed

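Per the labels' protocols, total RNA of liver was depleted of ribosomal RNA, and paired reads were aligned with HISAT2 and counted per gene with HTSeq. Reads were trimmed with Trimmomatic 0.36, per the submitters' processing notes. The genome build, annotation release and strand setting were not given in the sources used here, and coordinates of the deposited table are not printed. The authors deposited a count and an RPKM value per gene and library, the RPKM being relative to gene length and library total. Per-length levels are these deposited RPKM values.

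From the counts, 15916 of 40154 genes passed filterByExpr and held 99.96% of all counts; 14180 genes had no count. All 9 enzymes passed. Libraries were scaled by TMM, with factors from 0.795 in Control replicate 2 to 1.18 in HFD replicate 3. CPM values of single genes use these sizes, while sums of cell type markers use the total counts without these factors. The 12 libraries, with totals of 45680738 to 61937544 counts, entered 1 fit with a mean per group in edgeR 4.0.16 (R 4.3.3) with robust quasi-likelihood, at 8 residual degrees of freedom and a common biological coefficient of variation of 0.299. Tests were two-sided, with Benjamini-Hochberg adjustment over all genes tested in each of 7 contrasts and a threshold of 0.05. DESeq2 1.42.0 was an alternative. Intervals of fold changes are 95%, from the standard error with 8 degrees of freedom, and before adjustment. Steps were tested on simulated data.

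Pairs of libraries within a group differed by more than sampling noise, at 87.9 to 645 chi-square units per degree of freedom. The enzymes, gene lists, contrasts and alternatives were chosen with earlier results of these data known. The text names all 9 enzymes, and in the other amino acid lists genes among the 4 with the smallest p per contrast. In the remaining 5 lists it names genes called or among the 2 with the smallest p in an averaged effect. Where fits that change the call of a gene are named, the gene kept its main call in the other edgeR fits of that contrast. Cell type markers are given as whole lists. Like patterns were sought among genes whose mean log2 CPM was at least 3 and whose symbol is not provisional.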

Additional observations from a re-analysis of the deposited data

How the results depend on the processing

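Under every alternative tried, the number of the 9 enzymes called was 0 in all 7 contrasts, as in the values reported. Of 606 alternative values of single enzymes, none passed the threshold, and the smallest adjusted p was 0.0755 (Hgd, diet effect averaged over SAMC, DESeq2). Directions of small or widely spread differences did turn, in 32 values of 16 results; the cause was not tested.

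Leaving out 1 library at a time gave log2 fold changes of -0.29 to 0.059 for Fah and -1.40 to 0.051 for Tat in Control+SAMC against Control, and both turned without Control replicate 2. In the averaged diet effect the range was -0.45 to 0.0048 for Gpt and -0.065 to 0.20 for Hpd. In the averaged SAMC effect it was -0.28 to 0.18 for Gpt, -0.45 to 1.10 for Sds and -0.14 to 0.23 for Tdo2. In the interaction it was -0.43 to 0.064 for Hpd.

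Without the 4 libraries low in Fga, 1 HFD library is left, which the fit assumes to vary like the other groups. HFD+SAMC against HFD then gave -0.49 for Got1, 0.44 for Hal and 0.31 for Tat, and Control+SAMC against Control gave 0.087 for Fah. The averaged diet effect of Gpt was then 0.18. The averaged SAMC effects were 0.035 for Fah, -0.17 for Got1, 0.35 for Hal and -0.18 for Tdo2, and the interactions 0.18 for Hal and -0.25 for Tdo2. With no filter on low counts, the averaged SAMC effect of Gpt was 0.0031. Rhbg lost its call without these 4 libraries (adjusted p = 0.0635, edgeR).

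Over all genes the number called moved more. In HFD against Control, DESeq2 called 315 genes and edgeR 23, and in HFD+SAMC against Control+SAMC 272 and 10. With SAMC compared on each diet, DESeq2 called 249 and edgeR 8 on the high fat diet, and 219 and 19 on the normal diet. For the averaged diet effect, the averaged SAMC effect and the interaction DESeq2 called 538, 436 and 128, where edgeR called 67, 35 and 23. A fit of only the 2 groups compared called 4 in HFD against Control, 44 in HFD+SAMC against Control+SAMC, 23 for SAMC on the high fat diet and 5 for SAMC on the normal diet. Leaving out 1 library at a time gave 4 to 53 calls in HFD against Control, 1 to 45 in HFD+SAMC against Control+SAMC, 1 to 27 for SAMC on the high fat diet and 3 to 23 on the normal diet. It gave 30 to 130 in the averaged diet effect, 13 to 68 in the averaged SAMC effect and 7 to 19 in the interaction. Without the 4 libraries low in Fga the edgeR counts were 3 in HFD against Control, 0 for SAMC on the high fat diet, 25 in HFD+SAMC against Control+SAMC, 31 in the averaged diet effect and 2 in the interaction. With no filter on low counts, HFD+SAMC against HFD had 19 calls, HFD+SAMC against Control+SAMC 21 and the averaged SAMC effect 67.

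Replicate numbers are shared between groups, but nothing says that they pair the samples. Same-numbered libraries had correlations of -0.22 to 0.25 in their deviations from group means, over 0.1 in 2 of 15 pairs, and 1 of 12 libraries correlated best with its own number. With the replicate number as a block, 0 of the 9 enzymes were called in each contrast. The replicate block turned the averaged diet effect of Hpd to -0.062, the averaged SAMC effect of Sds to 1.075 and the interaction of Hpd to 0.087. With the block, Amdhd1 was called in HFD against Control (1.56; adjusted p = 0.0170) and HFD+SAMC against HFD (-1.44; 0.0322). In the main fit, without the block, these values were 1.06 (adjusted p = 0.2745, edgeR) and -0.91 (0.3742), and neither was called. Without the 4 libraries low in Fga, which leaves 1 HFD library, they were 0.34 and -0.27. With the block, Amdhd1 (0.83; adjusted p = 0.0253) and Slc7a2 (-0.80; 0.0487) were also called in the averaged diet effect. The block moved the calls over all genes to 6 in Control+SAMC against Control, 2 in HFD+SAMC against Control+SAMC, 10 in the averaged SAMC effect and 9 in the interaction.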
